A study of Mus musculus with 2 samples.

Results

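E proteins are basic helix-loop-helix (bHLH) transcription factors, and ID factors are their inhibitors. The 7 genes described here were Tcf3, Tcf4 and Tcf12 (E proteins), Id1 and Id3 (ID factors), Lyl1 (a bHLH partner of E proteins in blood cells) and Bhlhe40 (a bHLH repressor). They were taken by gene symbol from 19505 named genes. Each was measured by 1 probe set. Expression had been profiled on 2 Affymetrix arrays, 1 from circKcnt2 knockout cells and 1 from WT cells. The study names these cells group 3 innate lymphoid cells (ILC3s). Knockout mice had lost, by CRISPR/Cas9, intronic sequence that the circular RNA circKcnt2 needs to form, and WT mice were littermates. All mice were on the C57BL/6 background and had received dextran sodium sulfate (DSS), which injures the gut epithelium. The sort took cells that lacked lineage markers, stained high for CD90 and stained low for CD45. Mice given DSS for colitis were about 8 weeks old. The sources used here do not state how many mice gave cells to each array. With 1 array per genotype the spread between animals or cultures is unknown, and differences are given without an error or a test.

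Values are log2 signals made by the authors with RMA, and differences are circKcnt2 knockout minus WT. Background was set at 2.73, the 95th percentile of 1412 olfactory and vomeronasal receptor genes, and 12504 of 19505 genes (64.1%) reached it on at least 1 array. The median difference of these 12504 genes was 0.06. The host gene Kcnt2 was below background on both arrays (1.45 and 1.45), which gives no check of the genotype. Batf was at 10.73 on the circKcnt2 knockout array and 5.71 on the WT array. The arrays also differed in Y-linked genes, with Uty at 1.24 on the circKcnt2 knockout array and 5.26 on the WT array. Ranks 1, 2 and 3 from the bottom of the 12504 differences were held by Uty (-4.01), Kdm5d (-3.11) and Eif2s3y (-2.69). Each of them was above background only on the WT array. Sry, also Y-linked, was nearly equal (3.39 on the circKcnt2 knockout array and 3.44 on the WT array). It exceeded background by only 0.66 and 0.72, so its near equality is a weak check of the sex of the mice. With 1 array per genotype, a difference in the sex of the mice would coincide with genotype. Its part in the differences of the members was not tested. The labelled cell type was checked against its markers. Of 13 ILC3 markers analysed, 9 were above background on at least 1 array, and the receptor genes Il23r, Il1r1, Ncr1 and Ccr6 were below it on both arrays. Tox, Thy1, Id2 and Il7r were highest, at 9.48, 9.36, 8.39 and 7.70 on the circKcnt2 knockout array and 9.40, 9.31, 8.40 and 7.86 on the WT array. Signals were lower for Ahr (3.92 on the circKcnt2 knockout array and 4.40 on the WT array), Kit (3.74 and 3.67) and Cxcr6 (3.69 and 3.62). Il22 (2.93 and 3.35) and Rora (2.68, below background, and 2.98) were lowest. All 15 T cell markers analysed were above background, for example Cd3e at 10.16 on the circKcnt2 knockout array and 9.98 on the WT array. Markers of immature thymocytes were also high, with Dntt at 8.24 and Cd8b1 at 10.00 on the circKcnt2 knockout array, against 8.25 and 9.96 on the WT array. Such signals do not match the ILC3 label or a sort of cells that lack lineage markers. The levels of the members are those of the labelled samples and are not shown to be levels of ILC3s. Since these are bulk samples, fewer cells of a type and less RNA per cell cannot be told apart.

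E proteins bind a short DNA motif, the E-box, as dimers with each other or with tissue-restricted bHLH factors. ID factors have the helix-loop-helix part but lack the basic part that contacts DNA, so a dimer of an E protein with an ID factor does not bind. In lymphocytes, E proteins drive the B and T cell programmes, including recombination of antigen receptor genes, and Id2 is known to be needed for innate lymphoid cell development.

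Upstream sequence was looked up for these genes in RefSeq (GRCm38.p6), and 4 of the 7 members matched. The 250 bases before the start of Id3 (the member past 1.5-fold upward), of Id2 (the ID gene known for innate lymphoid cells) and of Tcf12 (an E protein with nearly equal signals, at the most upstream of its 3 starts) are shown, 5′ to 3′, with each E-box (CANNTG, the same on both strands) in capitals. They lie at chr4:136143572-136143821 on the plus strand, chr12:25096093-25096342 on the minus strand and chr9:72111820-72112069 on the minus strand.
Id3: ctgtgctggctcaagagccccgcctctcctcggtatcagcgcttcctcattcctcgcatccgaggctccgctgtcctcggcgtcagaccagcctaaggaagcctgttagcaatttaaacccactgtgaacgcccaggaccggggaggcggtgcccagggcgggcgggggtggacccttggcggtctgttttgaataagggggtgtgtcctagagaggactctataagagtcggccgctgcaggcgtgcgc
Id2: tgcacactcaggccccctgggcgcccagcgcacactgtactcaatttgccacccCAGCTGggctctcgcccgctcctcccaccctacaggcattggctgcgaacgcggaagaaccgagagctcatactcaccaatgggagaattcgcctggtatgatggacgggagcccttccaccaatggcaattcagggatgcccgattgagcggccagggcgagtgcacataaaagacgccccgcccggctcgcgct
Tcf12: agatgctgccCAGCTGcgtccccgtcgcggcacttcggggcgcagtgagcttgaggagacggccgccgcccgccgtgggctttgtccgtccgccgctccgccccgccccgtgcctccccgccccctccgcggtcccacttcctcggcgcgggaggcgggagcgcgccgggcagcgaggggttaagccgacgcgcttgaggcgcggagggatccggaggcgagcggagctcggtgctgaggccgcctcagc
The Id3 window held no E-box. The Id2 window held 1, CAGCTG, whose first base lay 196 bases before the start, and the Tcf12 window held 1 of the same letters, 240 bases before the start. Of 32851 such windows of all genes, 66.2% held at least 1 CANNTG and 13% held CAGCTG, so these matches are a description only.

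The E protein genes were clearly above background and nearly equal on the 2 arrays. Tcf12 encodes HEB, which is abundant in developing thymocytes, and Tcf3 encodes E12 and E47, which are needed for B cell development and early T cell development. Tcf12 (probe set TC0900002613.mm.2) was at 8.87 on the circKcnt2 knockout array and 8.78 on the WT array, a difference of 0.09. Tcf3 (probe set TC1000002501.mm.2) was at 7.15 on the circKcnt2 knockout array and 7.12 on the WT array, a difference of 0.03. Tcf4 encodes E2-2, known for its role in plasmacytoid dendritic cells. Tcf4 (probe set TC1800000741.mm.2) was at 6.10 on the circKcnt2 knockout array and 6.23 on the WT array, a difference of -0.13. None of the 3 differed by more than 1.09-fold, and the sign of Tcf3 and Tcf12 turned with the normalization, so neither has a settled direction. Among the 500 genes nearest to each in level, the middle 95% of differences ran from -0.29 to 0.65 around Tcf3, from -0.55 to 0.70 around Tcf4 and from -0.22 to 0.59 around Tcf12, and each E protein gene lay inside its range. Tcf3 and Tcf4 share old names with the HMG-box factors Tcf7l1 and Tcf7l2, but their probe sets here were those of the bHLH genes by Entrez identifier.

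**Figure D1:**
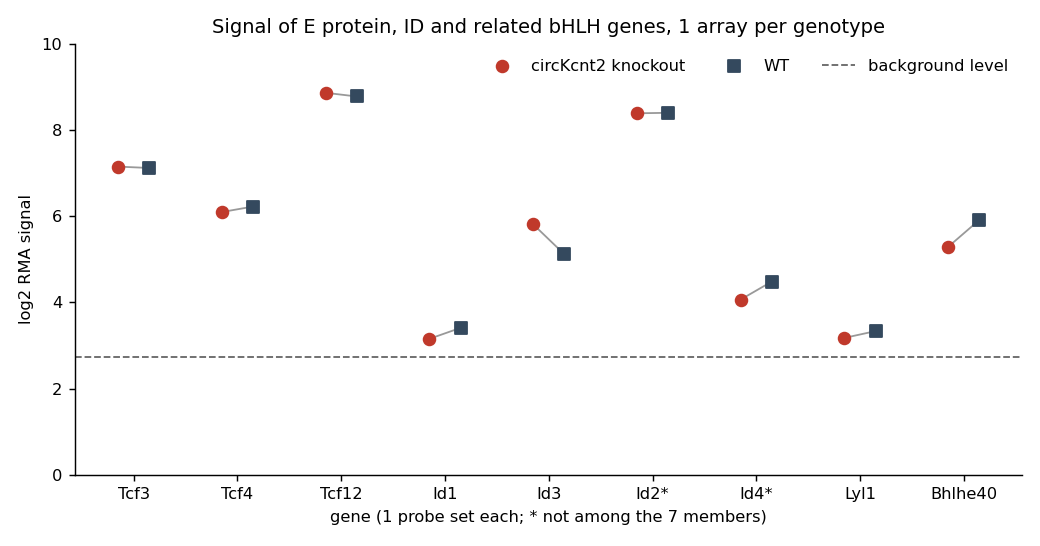
log2 RMA signal (y axis) of the 7 members and of Id2 and Id4 (x axis) on the circKcnt2 knockout array (circles, left) and the WT array (squares, right), 1 array each, with the background level of 2.73 as a dashed line. Points of Tcf3, Tcf12 and Id2 are nearly level, Id3 is higher and Bhlhe40 lower on the circKcnt2 knockout array, and Id1 and Lyl1 lie close to background.

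The differences of the 4 ID genes were not alike in sign. Each lay inside the middle 95% of differences among the 500 genes nearest to it in level. With 1 array per genotype, a divergence among them is not shown. Id3, an ID factor that T cell receptor signalling is known to induce in thymocytes, was at 5.81 on the circKcnt2 knockout array and 5.12 on the WT array (probe set TC0400001677.mm.2), so that it was 1.62-fold higher. Id1, an ID factor induced by BMP signalling, was at 3.16 on the circKcnt2 knockout array and 3.41 on the WT array (probe set TC0200002298.mm.2), a difference of -0.25. Id3 was the only one of the 4 ID genes with a higher signal on the circKcnt2 knockout array. Of the ID genes outside the 7, Id2 was at 8.39 on the circKcnt2 knockout array and 8.40 on the WT array, and Id4 was at 4.07 on the circKcnt2 knockout array and 4.49 on the WT array. Id3 ranked 577 from the top among the 12504 differences. Of the 500 genes nearest to Id3 in level, 47 (9.4%) had signals at least 1.5-fold higher, and their middle 95% ran from -0.52 to 0.87, so Id3 lay inside the spread of genes of like level. Its difference fell short of 1.5-fold after a loess correction on level (0.56) and after quantile normalization (0.58).

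Bhlhe40, a repressor of the bHLH-Orange class that supports inflammatory cytokine production in T cells and takes part in the circadian clock, was at 5.29 on the circKcnt2 knockout array and 5.92 on the WT array (probe set TC0600001203.mm.2). It was thus 1.54-fold lower, and ranked 515 from the bottom of the 12504 differences. Of the 500 genes nearest to it in level, 2 (0.40%) were at least 1.5-fold lower, and their middle 95% ran from -0.43 to 0.81, so Bhlhe40 lay below that range. After the loess correction its difference was -0.76, and with 32 added before the logarithm it was -0.38, short of 1.5-fold.

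Lyl1, which pairs with E proteins in blood stem cells and early T cell progenitors, was at 3.18 on the circKcnt2 knockout array and 3.34 on the WT array (probe set TC0800000959.mm.2), a difference of -0.16. Lyl1 and Id1 exceeded background by 0.45 and 0.43 on the circKcnt2 knockout array, and by 0.61 and 0.68 on the WT array. Background controls matched for GC content, which carry no gene, were also lower on the circKcnt2 knockout array. All 12 controls with 14 or more G and C bases were lower there, by a median difference of -0.20. The control with 17 such bases was at 3.25 on the circKcnt2 knockout array and 3.49 on the WT array, a difference of -0.24. Id4 (4.07 on the circKcnt2 knockout array and 4.49 on the WT array) also lay in the signal range of these controls. The part of this shift in the differences of Id1, Id4 and Lyl1 was not tested.

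**Figure D2:**
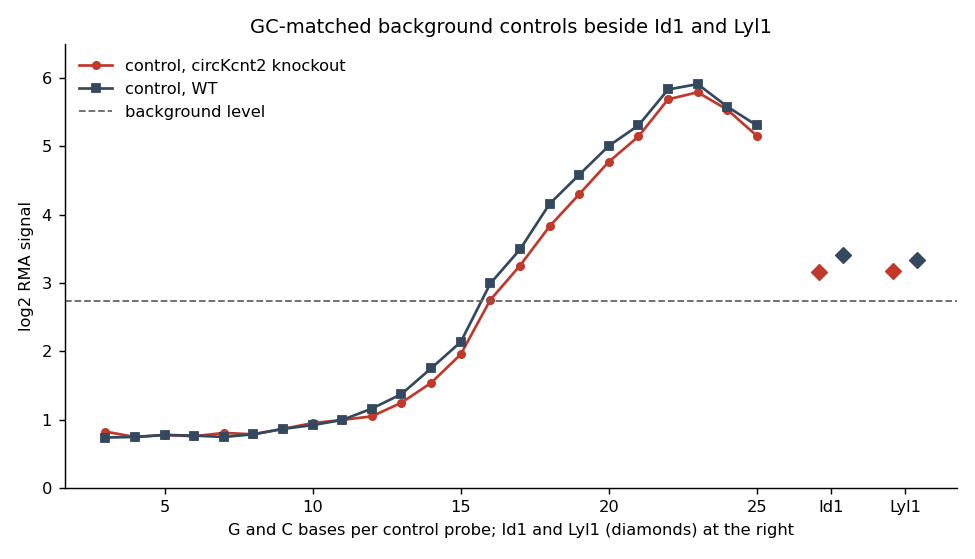
log2 RMA signal (y axis) of 23 background controls against their number of G and C bases (x axis), with Id1 and Lyl1 as diamonds at the right, on the circKcnt2 knockout array (red) and the WT array (dark blue). Controls of 14 or more such bases are lower on the circKcnt2 knockout array, and Id1 and Lyl1 lie within their range of signals.

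Set against all genes, Id3 was the 1 member of 7 past 1.5-fold upward and Bhlhe40 the 1 past it downward on the circKcnt2 knockout array. Among the 12504 genes above background, the share at or past 1.5-fold was 7.66% upward and 5.21% downward. None of the 7 reached 2-fold, which 1.11% of genes reached upward and 0.512% downward. With counts of 1 each, the members were not shown to differ from other genes. The median difference of the members was -0.13, beside 0.06 for all genes above background. Over all genes 59.5% of those past 1.5-fold were higher, against 45.4% with the median difference subtracted and 83.1% with 32 added before the logarithm. Differences also depended on level, with a median of -0.23 for genes of mean level up to 3 and 0.16 for genes between 6 and 7.

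**Figure D3:**
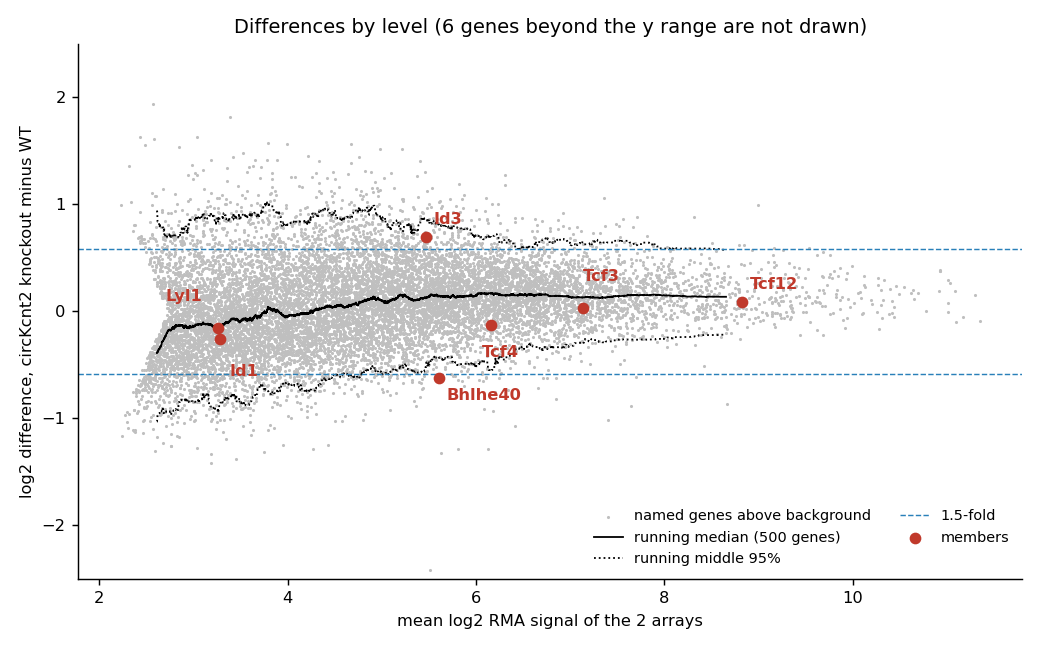
Difference between the circKcnt2 knockout and WT arrays (y axis, log2) against mean log2 signal (x axis) for genes above background (grey; 6 genes past 2.5 are not drawn) and the 7 members (red), with the running median and middle 95% over 500 genes and the 1.5-fold lines. Id3 lies inside the upper edge of the running range, Bhlhe40 below the lower edge, Tcf12 past the level where the range ends, and the remaining members inside it.

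**Figure D4:**
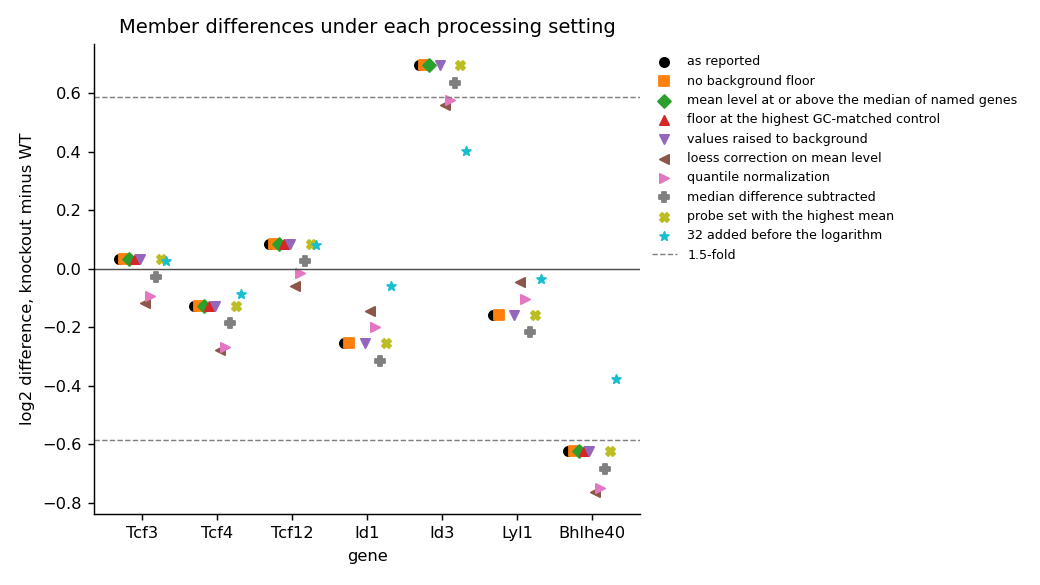
Difference between the circKcnt2 knockout and WT arrays (y axis, log2) for each member (x axis) as reported (black) and under 9 other processing settings (coloured), with 1.5-fold as dashed lines; a missing mark means that the gene did not reach that floor. Tcf3 and Tcf12 lie on both sides of 0, and Id3 falls inside the 1.5-fold line under 3 settings and Bhlhe40 under 1.

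Other bHLH classes and the partners of E proteins were described in the same way. Of 22 tissue-restricted bHLH genes above background, Lyl1 included, Atoh7 and Mesp2 were at least 1.5-fold lower, none was at least 1.5-fold higher, and the median difference was -0.35. Neurog1 had signals of 1.93 on the circKcnt2 knockout array, below background, and 2.88 on the WT array, which shows only that it was at least 1.11-fold lower. With measured signals, Neurog1 included, the count of lower genes was 3, and it was 2 with values raised to background, 1 after loess correction, 0 with 32 added and 5 with the median difference subtracted. These 22 genes, which include muscle and nerve factors such as Myog (3.80 on the circKcnt2 knockout array and 4.10 on the WT array), had signals between 1.93 and 4.68 on the circKcnt2 knockout array and between 2.85 and 4.78 on the WT array, in the range of the GC-matched controls that were lower too, and the part of that shift in these differences was not tested. The stem cell factor Tal1, a close relative of Lyl1, was at 4.44 on the circKcnt2 knockout array and 4.68 on the WT array. Of 9 bHLH-Orange genes above background, 2 were at least 1.5-fold lower and none higher, with a median of -0.35. Besides Bhlhe40 this was the Notch target Hey1, at 2.89 on the circKcnt2 knockout array, close to background, and 3.51 on the WT array. Hes1, another Notch target, was at 3.38 on both. The count of lower bHLH-Orange genes was 1 after quantile normalization, 3 with the median difference subtracted and 0 with 32 added.

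The bHLH leucine zipper and bHLH-PAS factors, which do not pair with E proteins, divided evenly with the values as reported. Among the 32 detected genes of these classes, 2 reached 1.5-fold upward, Clock (5.89 on the circKcnt2 knockout array and 4.96 on the WT array) and Myc (7.77 on the circKcnt2 knockout array and 6.97 on the WT array). Another 2 reached it downward, Ahrr (4.16 on the circKcnt2 knockout array and 4.83 on the WT array) and Usf1 (4.99 on the circKcnt2 knockout array and 5.65 on the WT array). The median of this class was 0.06. The upward and downward counts were 2 and 3 after loess correction and after quantile normalization. They were 2 and 4 with the median difference subtracted, and 1 and 0 with 32 added. Of 16 cofactors and LMO complex partners above background, 1 was at least 1.5-fold lower and none higher, with a median of -0.08. That gene was Lmo2, whose product is part of complexes that hold TAL1 and E proteins. Lmo2 was at 3.10 on the circKcnt2 knockout array and 3.73 on the WT array. The acetyltransferase genes Ep300 (7.23 on the circKcnt2 knockout array and 7.07 on the WT array) and Crebbp (8.97 on the circKcnt2 knockout array and 9.02 on the WT array) differed little.

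Genes known as targets of E proteins followed. Targets in T lineage cells numbered 19, all above background, with 11 differences above 0, 8 below 0 and a median of 0.08. The single one past 1.5-fold in either direction was Rag2, higher on the circKcnt2 knockout array, a subunit of the recombinase, at 6.80 on the circKcnt2 knockout array and 6.17 on the WT array. This call was lost under loess correction, quantile normalization, subtraction of the median difference and an offset of 32. Ptcra, the pre-T cell receptor alpha chain gene, was at 6.53 on the circKcnt2 knockout array and 6.17 on the WT array. Cdk6, a cell cycle kinase gene, was at 6.84 on the circKcnt2 knockout array and 6.41 on the WT array, and Gfi1, a repressor gene, was at 5.12 on the circKcnt2 knockout array and 4.72 on the WT array. Among those with lower signals, Socs1, a cytokine signalling inhibitor gene, was at 6.15 on the circKcnt2 knockout array and 6.49 on the WT array. Ets1, a lymphoid transcription factor gene, was at 9.84 on the circKcnt2 knockout array and 9.99 on the WT array. Cxcr5, below background on the circKcnt2 knockout array, was at least 1.05-fold lower. Among 12 detected targets in B lineage cells the median difference was also 0.08, none reached 1.5-fold downward, and 2 reached it upward. They were Rag2, which is on both lists, and Cd79b, a signalling chain of the B cell receptor, at 4.87 on the circKcnt2 knockout array and 3.91 on the WT array. The count was 1 under each of the 3 normalizations, with 1 gene lower once the median difference was subtracted. The median was 0.56 with either stricter floor, which 7 and 3 of these genes reached. Ebf1, an early B cell factor, was at 3.49 on the circKcnt2 knockout array and 3.68 on the WT array.

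Genes that act upstream of Id genes were compared last. Of 21 genes of BMP and TGF-beta signalling and of the EGR group above background, 1 was at least 1.5-fold lower and none higher, with a median of -0.04. This was Bambi, a decoy receptor that dampens TGF-beta family signals, at 3.71 on the circKcnt2 knockout array and 4.56 on the WT array. The count of lower genes was 3 after loess correction and 3 after quantile normalization. It was 0 with 32 added before the logarithm and 0 with the floor at the strongest GC-matched control. Egr1, which is known to induce Id3 in thymocytes, was at 8.82 on the circKcnt2 knockout array and 8.75 on the WT array. Egr2 was at 7.66 on the circKcnt2 knockout array and 7.89 on the WT array, and Egr3 at 4.75 on the circKcnt2 knockout array and 5.07 on the WT array.

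**Figure D5:**
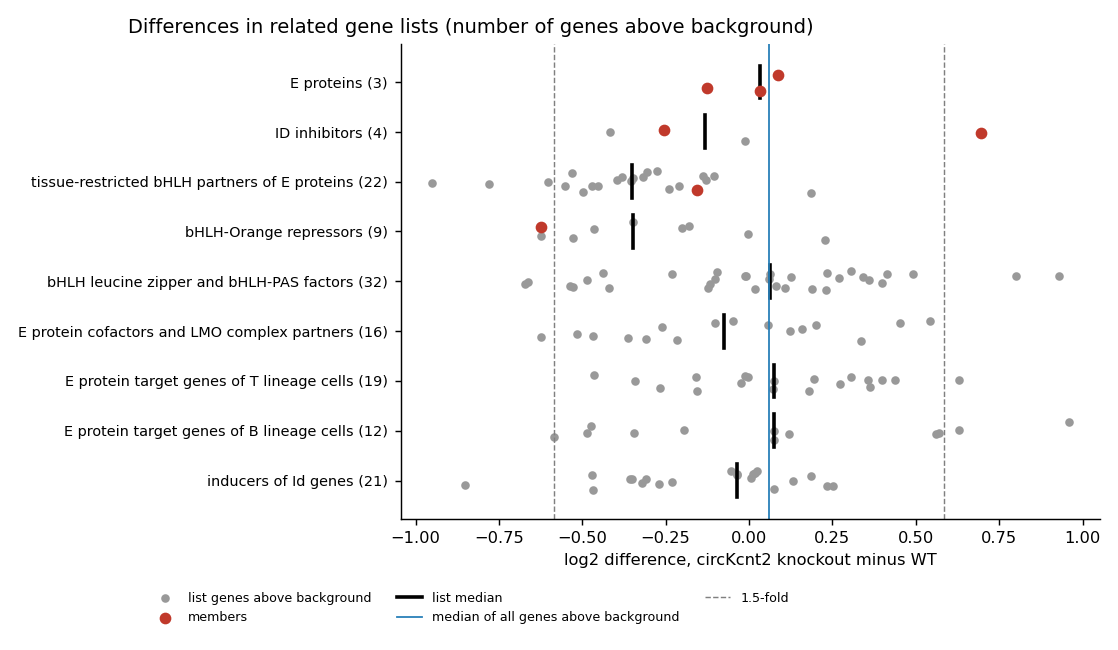
Difference between the circKcnt2 knockout and WT arrays (x axis, log2) for genes above background in 9 lists (rows, with the number of genes), with members in red, list medians as black bars, the median of all genes as a blue line and 1.5-fold as dashed lines. The medians of the tissue-restricted and bHLH-Orange lists lie lowest, both at -0.35, and the others between -0.13 and 0.08.

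Markers of other cells are given because the members are used by several lineages. The summed signal of 15 T cell markers was 12.84 on the circKcnt2 knockout array and 12.72 on the WT array (log2), and none of them differed by 1.5-fold. For 11 markers of double-positive thymocytes, which use Tcf12 and Tcf3, the sums were 12.53 on the circKcnt2 knockout array and 12.42 on the WT array, and 1 (Rag2) was at least 1.5-fold higher, the call that the 3 normalizations and the offset of 32 removed. For immediate early genes, 8 of 24 were at least 1.5-fold lower and 1 (Myc) higher, with a median of -0.23. Among these Fos was at 4.97 on the circKcnt2 knockout array and 6.29 on the WT array. Of 9 macrophage and monocyte markers above background, Cebpb, Ly6c2 and Fcgr1 were at least 1.5-fold lower and Itgam at least 1.58-fold higher, and their summed signal was 7.57 on the circKcnt2 knockout array and 8.0 on the WT array. Adgre1, below background on the circKcnt2 knockout array (2.44, against 3.05 on the WT array), was at least 1.2-fold lower. After loess correction and after quantile normalization, 2 of these markers were lower and 2 higher. Fcgr1 was at 3.35 on the circKcnt2 knockout array and 3.94 on the WT array, Csf1r was at 3.07 on the circKcnt2 knockout array and 3.24 on the WT array, and Cx3cr1 was below background on both. The part of these genes in the differences of Id3 and Bhlhe40 was not tested. Of 9 B and plasma cell markers above background, Jchain, which joins secreted antibody subunits, was at 4.3 on the circKcnt2 knockout array and 6.72 on the WT array, or 5.34-fold lower, and Cd79b was 1.94-fold higher. The lower count was 2 after loess correction and after quantile normalization and 4 with the median difference subtracted. Ms4a1, Cd22 and Cr2 were below background on both arrays. Siglech, which defines the plasmacytoid dendritic cells that use Tcf4, did not reach background on either array. Among 6 detected markers of these cells, 1 (Klk1) was at least 1.5-fold higher. Of 7 NK cell and ILC1 markers above background, 1 was at least 1.5-fold higher and 1 lower. Endothelial cells are a cell type known for Id1. Of their genes on the list, Cdh5, Kdr, Tek and Cldn5 were below background on both arrays, while Pecam1 and Esam were above it on both. Pecam1 was at 6.63 on the circKcnt2 knockout array and 6.30 on the WT array, and Esam at 4.80 and 5.39. Of 5 endothelial and stromal markers above background, 1 (Esam) was at least 1.5-fold lower. Of 4 epithelial and 6 erythroid and stem cell markers above background, 1 of each list was at least 1.5-fold lower and none higher.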

How the data were processed

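Total RNA from the cells sorted as ILC3s was extracted with Trizol, biotin-labelled and hybridized to Affymetrix mouse arrays, 1 per genotype. The authors deposited log2 values per probe set, made per the submitters' processing notes with Affymetrix Power Tools and RMA (no version numbers are stated in these sources). RMA scales the arrays to each other, so a change shared by all genes could be lost. Of 29129 probe sets, 19572 had 1 gene symbol in the platform annotation and 0 had several, and the remaining probe sets are not named here. All 19572 matched RefSeq by Entrez identifier. Probe sets of a gene were averaged (55 genes). The members and gene lists were chosen with earlier results of these data known. Grouping followed the genotype in the sample labels.

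With 1 array per group no p-value is given. Calls are differences of at least 1.5-fold among genes that reached background on at least 1 array, and list counts and medians use those genes. "At least" folds are taken against background. Named genes were the members, the remaining ID genes, checks of the comparison, and genes of each list with the largest difference or highest level. Some genes of these lists were not analysed here. Genes named outside this rule (the Y-linked genes, Kit, Cxcr6, Hes1, Tal1, Myog, Ptcra, Socs1, Ebf1, Csf1r, Fcgr1, the markers below background and the EGR genes) were chosen after their values were seen. Alternatives were 4 floors, 3 normalizations, the probe set of highest mean, an offset of 32 and thresholds of 1.25-fold and 2-fold. The steps were tested on simulated data with even noise and no shift by level. These arrays do have such a shift, so that test gives no error rate for them. Python 3.11.15, pandas 2.3.3 and statsmodels 0.14.6 were used.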

Additional observations from a re-analysis of the deposited data

How the results depend on the processing

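The alternatives were applied to each member. The differences of Tcf3 (-0.12 to 0.03), Tcf4 (-0.28 to -0.09), Tcf12 (-0.06 to 0.09), Id1 (-0.31 to -0.06) and Lyl1 (-0.22 to -0.04) stayed within 1.5-fold wherever they were computed. Those of Tcf3 changed sign under 3 of 9 alternatives and those of Tcf12 under 2 of 9. Id3 was at 0.56 after loess correction, 0.58 after quantile normalization and 0.40 with 32 added before the logarithm, and Bhlhe40 was at -0.38 with 32 added. Both kept their direction. The count of members at least 1.5-fold higher was 0 under the 3 settings named for Id3. It was also 0 when genes had to reach the strongest GC-matched control (5.91), which Id3 did not. Bhlhe40 reached that floor narrowly and only on the WT array (5.92), and was at 5.29 on the circKcnt2 knockout array. The part of the shift of the controls in the difference of Bhlhe40 was not tested. The count at least 1.5-fold lower was 0 with 32 added. Both counts were 0 at a 2-fold threshold. An offset shrinks differences of low signals by its construction. Id1 and Lyl1 did not reach the floors set at the median of named genes or at the highest control, and have no value there. Of 186 list medians under the alternatives, 12 changed sign, in 6 lists. Another 3 moved by more than the spread of all differences: the B lineage targets to 0.56 under both stricter floors, and the B and plasma cell markers to -1.20 with the floor at the strongest control. Few genes were left there: 7 B lineage targets at the floor of the median of named genes, and 3 at the strongest control. The -1.20 rests on 2 markers. Of 372 list counts, 71 moved by over 1.5 times or between 0 and a higher count. Id1 and Lyl1 exceeded background by at most 0.68 on either array. No paired analysis was possible because each genotype has 1 array.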

Other observations

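The HMG-box factors that share the TCF name with the E proteins belong to a different family, which acts with beta-catenin. Lef1, which is active in thymocytes, was at 9.58 on the circKcnt2 knockout array and 9.80 on the WT array. Tcf7l2 was at 5.27 on the circKcnt2 knockout array and 5.22 on the WT array, and Tcf7l1 was at 3.78 on the circKcnt2 knockout array and 4.28 on the WT array. None of these 3 differed by 1.5-fold.

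In the 250 bases before the start, Lyl1 held 1 E-box (CACCTG, 235 bases before the start), Tcf3 held 1 (CACTTG, 54 bases before), and 1 of the remaining windows of Tcf12 held CAAGTG, 149 bases before. CAGGTG or its reverse complement CACCTG was present in 17.2% of all windows. The EGR motif GCGNGGGCG, searched on both strands, was present in 4.70% of all windows and in none of those of Id3, Id2, Tcf3, Tcf12 and Lyl1. No match says only that these letters are not in these windows.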
